A study of Mus musculus with 8 samples.

Results

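Cartilage matrix genes were examined in RNA-seq values of molar mesenchyme from mice at postnatal (PN) day 3. The set was given by name and holds 10 genes. They include the fibrillar collagen genes *Col2a1*, *Col11a1* and *Col11a2* and the type IX collagen genes *Col9a1*, *Col9a2* and *Col9a3*. The others are the proteoglycan gene *Acan*, the link protein gene *Hapln1*, and the adaptor genes *Matn1* and *Comp*. Of the 10 genes, 9 were among the 20926 genes of the deposited table, and expression of *Matn1* was not analysed here. A total of 8 passed the filter on low values, which asked for a value of 1 or more in 4 or more libraries, and *Comp* did not. The 10 genes were chosen by what earlier results of these same libraries had shown, so their difference between the groups is given as a description. No p-value is printed for any of them, and calls by the fit across all genes are only listed.

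The 4 control libraries came from Ezh2fl/fl mice and the 4 mutant libraries from Osr2KI-Cre;Ezh2fl/fl mice (*Osr2-Cre;Ezh2* fl/fl), all at PN day 3. The labels give the strain as C57BL/6, whereas the study's methods speak of a mixed background. Both groups carry the floxed *Ezh2* alleles, and only the mutants carry the Cre knock-in at *Osr2*, which acts in the mesenchyme of the tooth and in the jaw bone around it and spares the epithelium. *Ezh2* encodes the methyltransferase of Polycomb repressive complex PRC2, which places H3K27Me3, a histone mark of silenced genes. The epithelium was taken off the molars before RNA isolation. Neither the labels nor the study's methods tie each library to its own animal, so the spread between them may be technical in part.

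Cartilage matrix is built from thin fibrils and a hydrated gel between them. Type II collagen, the product of *Col2a1*, forms most of the fibril, type XI collagen lies in its core and limits its width, and type IX collagen sits on its surface. Aggrecan, the product of *Acan*, carries chondroitin sulfate chains that hold water and is bound to hyaluronan by link protein, the product of *Hapln1*, while matrilins and COMP connect the parts. The dental papilla and follicle, derived from the cranial neural crest, form dentin, pulp, cementum, periodontal ligament and bone, and no cartilage. Most of these genes are nevertheless used outside cartilage, type XI collagen and link protein in many kinds of mesenchyme.

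The deposited values were read as an estimated number of reads plus 1, with no correction for gene length. They were scaled so that every library had about the same 75th percentile. Only 62.5% of the values under 20 times the smallest of their library were whole multiples of it, so estimated reads are approximate. Estimated depth was 48.3 to 68.8 M reads per library. *Ezh2* was at 42.9 ± 8.03 in controls and 31.1 ± 5.92 in mutants (SD, n = 4 each), so its transcript was lower but present. A total of 3 libraries (control 3, control 4 and mutant 3) were high in the enamel gene *Enam*, with values over 1000, although the epithelium had been removed. *Xist* and *Ddx3y*, which mark female and male cells, were both present in 4 libraries (control 1, control 3, control 4 and mutant 4). *Ddx3y* alone was present in 2 (control 2 and mutant 1) and *Xist* alone in 2 (mutant 2 and mutant 3). Whether the 4 libraries with both hold RNA of several animals was not tested.

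In the control libraries the 9 genes fell into an abundant and a scarce group. Every library also held epithelial transcripts (*Krt5* at 827 to 1992), so these are levels of the whole sample. Per kb of exon, *Col9a2* had the highest control level (89.7 ± 19.2), followed by *Col11a2* (45.7 ± 5.61), *Col11a1* (41.5 ± 5.46), *Hapln1* (31.5 ± 6.25) and *Col9a3* (31.2 ± 11.2). The levels per kb of *Col11a2* and *Col11a1*, and those of *Hapln1* and *Col9a3*, differed by less than the SD of either gene. The scarce group lay far below, with levels per kb of 1.05 ± 0.281 for *Col2a1*, 0.633 ± 0.182 for *Col9a1*, 0.358 ± 0.097 for *Acan* and 0.049 ± 0.012 for *Comp*. The scarce group thus held the genes of type II collagen and aggrecan and 1 of the 5 accompanying collagen chains, *Col9a1*.

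In the mutants *Col9a2* still had the highest level per kb (174 ± 46.3), and *Col11a1* (39.3 ± 8.15), *Col9a3* (38.9 ± 10.8), *Col11a2* (38.8 ± 5.13) and *Hapln1* (36.9 ± 9.13) lay within an SD of each other. The scarce genes were at 3.54 ± 1.35 per kb for *Col9a1*, 2.93 ± 0.980 for *Col2a1*, 1.57 ± 0.611 for *Acan* and 0.057 ± 0.014 for *Comp*. *Col9a1* stood above *Col2a1* in the mutants and below it in the controls, and in the mutants these 2 levels differed by less than the SD of either.

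*Col2a1* (chr15:97975602-98004696, minus strand, in the table's mm10 coordinates, as for the genes that follow) encodes the single chain of type II collagen. Its values over exons in libraries 1 to 4 were 8.76, 13.5, 8.77 and 7.74 for the controls and 16.7, 35.9, 22.4 and 33.3 for the mutants. All 4 mutant libraries were above all 4 controls, and mutant library 1 was the lowest of its group. The group means were 9.70 ± 2.59 and 27.1 ± 9.06 (SD, n = 4 each), a ratio of 2.79, with a log2 difference on the log2(value + 1) scale of 1.36 (SE 0.24, 95% interval 0.81 to 1.91). These values rest on 503 to 1007 estimated reads per control library and 879 to 2578 per mutant library.

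*Col11a1* (chr3:114030540-114220719, plus strand) encodes the first chain of type XI collagen. Its values were 599.6, 577, 483 and 457 in the controls and 407, 626, 425 and 547 in the mutants. The groups overlapped over most of their range. The log2 difference was -0.09 (SE 0.15, 95% interval -0.43 to 0.25).

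*Col11a2* (chr17:34039437-34066686, plus strand) encodes the second chain of type XI collagen. Its values were 288, 358, 334 and 277 in the controls and 219, 271, 305 and 271 in the mutants, again with overlap. The log2 difference was -0.24 (SE 0.12, 95% interval -0.50 to 0.03).

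*Col9a1* (chr1:24177610-24252685, plus strand) encodes the first of the 3 chains of type IX collagen. Its values were 4.22, 3.66, 2.11 and 2.84 in the controls and 8.17, 23.9, 20.6 and 19.0 in the mutants. The lowest mutant value, that of library 1, was still above the highest control value. The means were 3.21 ± 0.924 and 17.9 ± 6.83, a ratio of 5.58, which was the largest among the members, and the log2 difference was 2.10 (SE 0.30, 95% interval 1.43 to 2.77). The depth behind it was 122 to 272 estimated reads per control library and 430 to 1578 per mutant library.

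*Col9a2* (chr4:121039385-121055323, plus strand) encodes the second type IX chain and was the most abundant member per kb. Its values were 309, 279, 194 and 329 in the controls and 384, 727, 494 and 546 in the mutants, without overlap. The ratio of means was 1.94 (278 ± 59.4 against 538 ± 143) and the log2 difference 0.94 (SE 0.21, 95% interval 0.47 to 1.42).

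*Col9a3* (chr2:180597790-180622190, plus strand) encodes the third type IX chain and overlaps *Tcfl5* on the opposite strand, so without stranded counting their reads cannot be told apart. Its values were 70.1, 100.5, 143 and 166 in the controls and 144, 122, 211 and 123 in the mutants. The groups overlapped, and the controls alone ranged from 70.1 to 166. The log2 difference was 0.36 (SE 0.27, 95% interval -0.25 to 0.96).

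*Acan* (chr7:79053483-79115100, plus strand) encodes the aggrecan core protein. Its values were 2.94, 2.17, 2.01 and 3.58 in the controls and 6.35, 16.9, 9.97 and 13.5 in the mutants, with mutant library 1 again the lowest mutant and above every control. The means were 2.67 ± 0.725 and 11.7 ± 4.56, a ratio of 4.37, and the log2 difference was 1.73 (SE 0.26, 95% interval 1.15 to 2.32). The estimated reads per library were 116 to 233 for controls and 334 to 1116 for mutants.

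*Hapln1* (chr13:89540636-89611833, plus strand) encodes the link protein that joins aggrecan to hyaluronan, and it overlaps *Gm8546* on the opposite strand. Its values were 238, 184, 154 and 167 in the controls and 154, 272, 195 and 252 in the mutants. The groups overlapped, and the log2 difference was 0.22 (SE 0.19, 95% interval -0.21 to 0.64).

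*Comp* (chr8:70373558-70382067, plus strand) encodes a pentameric adaptor of cartilage and tendon matrix. Each control library held 5 to 10 estimated reads of it and each mutant library 5 to 13, with values of 0.104, 0.148, 0.189 and 0.138 against 0.114, 0.212, 0.170 and 0.181. The groups overlapped, and no difference was detectable at this depth.

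**Figure D1:**
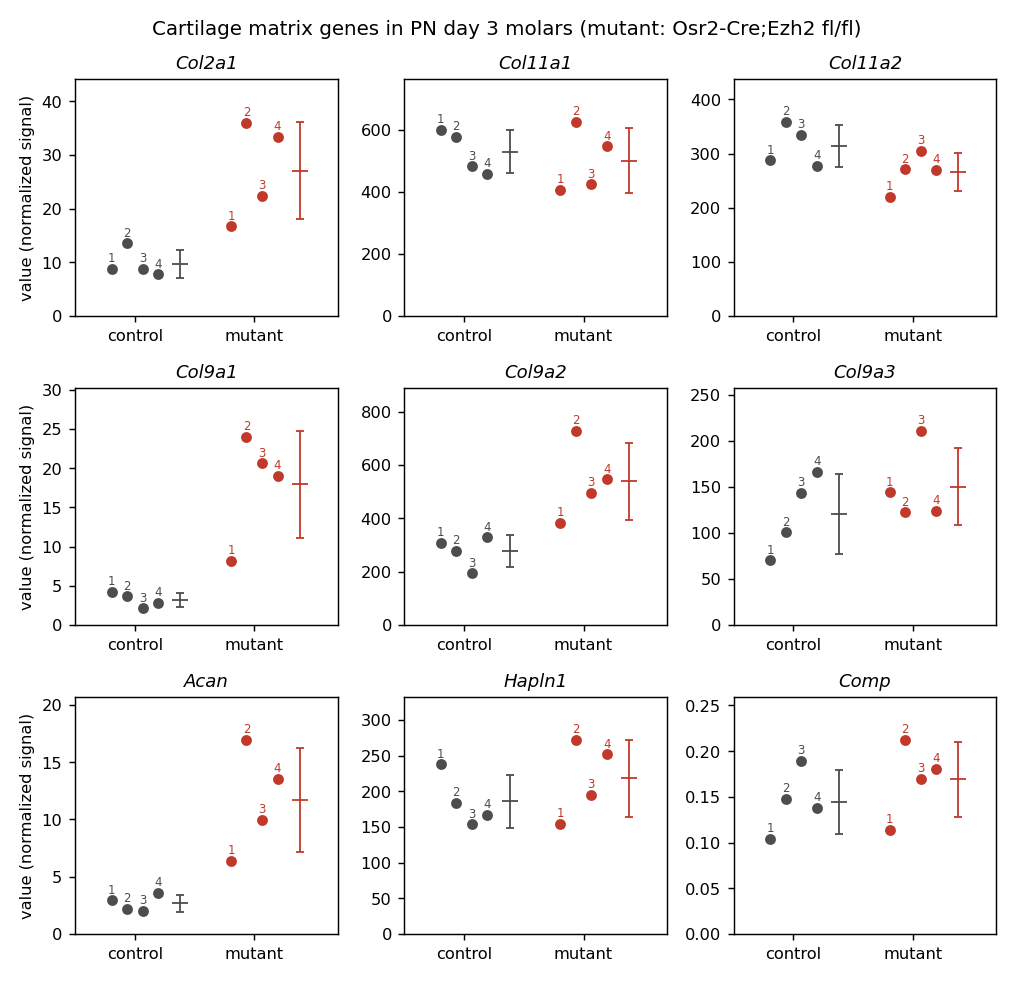
Deposited normalized values (vertical axes, starting at 0) of the 9 cartilage matrix genes with a row in the table. Points are the 4 control and 4 mutant libraries with their numbers, and bars beside them the mean ± SD. The groups do not overlap for Col2a1, Col9a1, Col9a2 and Acan, and overlap for Col11a1, Col11a2, Col9a3, Hapln1 and Comp.

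The groups did not overlap for 4 of the 9 genes, each time with the mutants higher, whereas they overlapped for 5 and were lower without overlap for 0. Over the 14854 genes tested, 5.76% were higher without overlap and 2.77% lower without overlap. By limma with Benjamini-Hochberg adjustment, *Col2a1*, *Col9a1* and *Acan* were among the 232 genes called higher (1.56% of those tested), and the 76 genes called lower were 0.512%. Nothing is read from these counts, because the genes were selected on the same libraries. The median log2 difference of the 8 members past the filter was 0.65, beside 0.01 over all genes tested, and 6 of the 8 differences were positive. All 3 calls were lost when the 3 libraries high in enamel transcripts were left out. The call of *Col2a1* was also lost when control library 1, 3 or 4 or mutant library 2 or 4 was left out. *Col9a2* was called when mutant library 1 was left out, and *Col9a3* when enamel transcripts were a covariate (log2 difference 0.75). These calls are listed only and are no support for either gene, as both were selected on the same libraries.

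The 3 libraries high in enamel transcripts were compared apart from the 5 others. Among the 5, control library 2 had an *Enam* value of 428, beside 23.3 to 56.4 in the rest. *Col9a1* differed by a log2 value of 2.64 among the high libraries and 1.75 among the others, *Acan* by 1.56 and 1.81, *Col2a1* by 1.34 and 1.24, and *Col9a2* by 0.97 and 0.86. The differences of the other genes were 0.44 and 0.62 for *Col9a3*, -0.15 and -0.18 for *Col11a1*, 0.00 and -0.35 for *Col11a2* and 0.28 and 0.07 for *Hapln1*. The *Col9a3* value of the mutant in the high set was 211, beside 143 and 166 in its controls. In the other set the values were 122 to 144 in mutants and 70.1 to 100.5 in controls, so mutants lay above controls within each set. The split was made after the data were seen. Whether enamel tissue bears on the spread of *Col9a3* was not tested. The high set holds 1 mutant and 2 control libraries, so it has no estimate of the spread among mutants, and these values are given with no test.

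**Figure D2:**
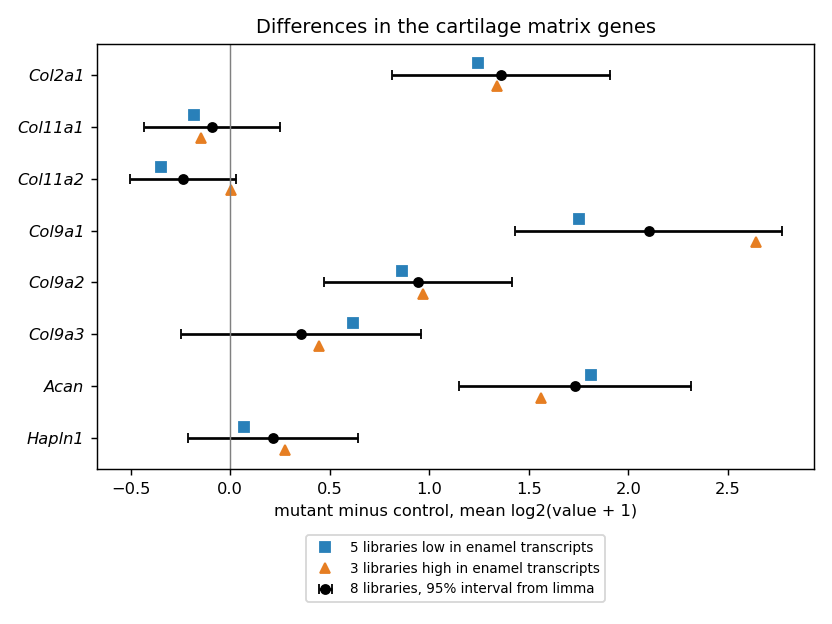
Log2 differences, mutants minus controls, of the 8 members past the filter on the log2(value + 1) scale. Black circles with bars are the fit of all 8 libraries with its 95% interval, squares the 5 libraries low in enamel transcripts and triangles the 3 high ones. The circles run from 2.10 for Col9a1 down to -0.24 for Col11a2, and because the genes were chosen on these libraries the bars show precision only and are no test.

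The unequal differences altered the proportions among the chains. *Col9a1* made up 0.701%, 0.618%, 0.416% and 0.374% of the type IX transcripts per kb in the controls and 0.989%, 1.74%, 1.86% and 1.76% in the mutants. The groups did not overlap, with means of 0.527 ± 0.157% and 1.59 ± 0.403%. *Col9a2* made up most of the remainder in both groups (73.6 ± 9.16% and 79.7 ± 6.21%) and *Col9a3* the rest (25.9 ± 9.30% and 18.7 ± 6.33%). Type IX collagen is a heterotrimer with one chain of each kind, so by transcripts *Col9a1* was the scarcest chain in every library.

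Among the 3 fibrillar genes, *Col2a1* made up 1.05%, 1.48%, 1.08% and 1.09% of the transcripts per kb in the controls and 2.75%, 4.20%, 3.03% and 4.19% in the mutants, again without overlap. The rest was divided about equally between *Col11a1* (47.0% and 48.3%) and *Col11a2* (51.8% and 48.1%). In cartilage type II collagen far exceeds type XI, and in these libraries the order was the reverse in both groups. These shares come from the values that chose the genes and are descriptions.

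**Figure D3:**
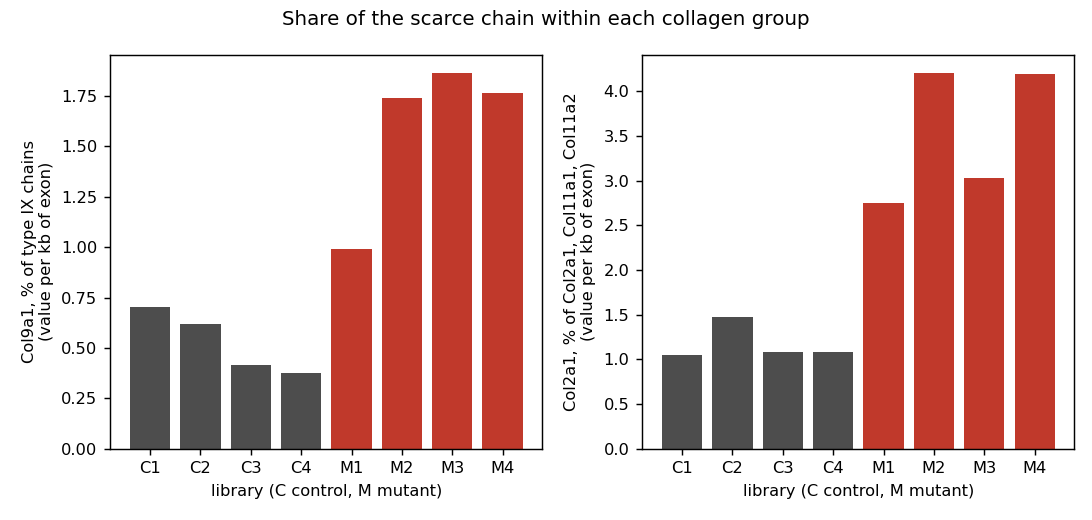
Share of Col9a1 among the type IX collagen genes (left) and of Col2a1 among the 3 fibrillar collagen genes (right), in percent of the values per kb of exon, for each of the 4 control and 4 mutant libraries. Both shares are higher in all mutant libraries than in any control, and mutant library 1 is the lowest mutant in each.

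Mutant library 1 was the lowest mutant for *Col2a1*, *Col9a1*, *Col9a2* and *Acan*. It was also the lowest for *Col11a1*, *Col11a2*, *Hapln1* and *Comp*, whose groups overlapped, but not for *Col9a3*. In the mean z-scored profile of the 8 members past the filter it stood at -0.45, among the controls (-0.62 to -0.20), while mutant libraries 2, 3 and 4 stood at 0.97, 0.47 and 0.65. Its *Ezh2* value (35.2) lay within the range of the other mutants (23.2 to 36.0), and its depth was the lowest of the 8. It was also the only mutant with a low *Xist* value (0.41, beside 401 to 2648 in the others), with *Ddx3y* at 73.0. Whether any of these bears on the members' values was not tested.

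After centring each group, Pearson's r over the 8 libraries was positive for 22 of the 28 pairs of members and negative for 6. The highest values were 0.91 for *Col11a1* with *Hapln1*, 0.90 for *Col9a2* with *Acan*, 0.86 for *Col9a1* with *Hapln1* and 0.84 for *Col2a1* with *Col11a1*. All 6 negative pairs held *Col9a3*, with the lowest r of -0.77 against *Col11a1*. *Col11a2* went little with several others, with r of 0.03 for *Col9a2*. All pairs share the same 8 libraries and their scaling, and these values are descriptions.

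Promoter sequences are shown for *Col9a1*, *Col9a2* and *Acan*, whose groups were apart, together with *Col11a1*, an abundant gene whose groups overlapped. They are shown because PRC2 is known to favour promoters rich in CG pairs, and the CG pairs are in capitals. Each window runs from 250 bases before to 50 after a RefSeq transcript start on GRCm38.p6, on the plus strand. The windows are chr1:24177360-24177659 (*Col9a1*, upstream start), chr4:121039316-121039615 (*Col9a2*), chr7:79052976-79053275 (*Acan*) and chr3:114030290-114030589 (*Col11a1*).
Col9a1: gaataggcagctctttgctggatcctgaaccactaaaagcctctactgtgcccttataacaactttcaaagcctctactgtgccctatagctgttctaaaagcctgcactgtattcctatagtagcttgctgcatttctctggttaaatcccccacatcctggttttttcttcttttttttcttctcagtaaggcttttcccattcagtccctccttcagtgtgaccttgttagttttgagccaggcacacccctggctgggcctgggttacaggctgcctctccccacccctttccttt
Col9a2: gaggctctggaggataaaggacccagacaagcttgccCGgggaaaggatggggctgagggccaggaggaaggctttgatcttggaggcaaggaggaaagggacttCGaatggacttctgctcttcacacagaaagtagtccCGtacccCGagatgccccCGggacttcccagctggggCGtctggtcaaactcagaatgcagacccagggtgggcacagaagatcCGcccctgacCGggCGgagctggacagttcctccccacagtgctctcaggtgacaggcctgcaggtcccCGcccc
Acan: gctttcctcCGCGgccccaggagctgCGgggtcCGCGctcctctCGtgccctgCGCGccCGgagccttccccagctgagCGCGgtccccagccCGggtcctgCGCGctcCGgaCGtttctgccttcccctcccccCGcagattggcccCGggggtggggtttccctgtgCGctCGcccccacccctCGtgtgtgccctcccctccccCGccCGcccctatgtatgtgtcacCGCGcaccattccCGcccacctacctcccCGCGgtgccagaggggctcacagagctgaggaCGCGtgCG
Col11a1: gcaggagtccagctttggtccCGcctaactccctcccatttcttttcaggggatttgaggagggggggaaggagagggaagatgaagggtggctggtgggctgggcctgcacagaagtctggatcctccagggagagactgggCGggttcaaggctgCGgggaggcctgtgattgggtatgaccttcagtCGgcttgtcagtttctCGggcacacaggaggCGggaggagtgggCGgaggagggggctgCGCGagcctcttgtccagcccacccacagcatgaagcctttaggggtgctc

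Windows of 7 of the 10 members were matched by symbol, and those of *Col2a1*, *Col9a3* and *Comp* were not. The windows of the genes whose mutants lay apart ranged widely in CG pairs. The *Acan* window held 31 CG pairs and was 74% G or C, that of *Col9a2* 10 and that of the upstream *Col9a1* start 0, whereas a second *Col9a1* start (chr1:24194953-24195252) held 1. Among genes whose groups overlapped, *Col11a2* held 16, *Col11a1* 9 and *Hapln1* 3, and the *Matn1* window held 6. Over all 32851 RefSeq windows the median was 7 CG pairs and the quartiles were 3 and 20, so *Acan* lay above the upper quartile and *Col9a1* below the lower. The SOX motif cores ACAAAG and ACAATG were searched on both strands, and 0 of the 8 windows of 7 member genes held either, beside 28.6% of all windows (18.7% and 12.6% for each core). SOX sites of cartilage genes are known mainly from distant enhancers and introns, which lie outside these windows.

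Genes that act with the members were taken from 5 lists of cartilage regulators, matrix proteins, sulfation enzymes and proteases. Of 69 symbols listed, which include older names of the same gene, 62 were in the table and 51 were tested, of which 4 were called higher and 1 lower (limma, adjusted p under 0.05), with a median log2 difference of -0.03. The higher genes were *Foxc1*, *Pth1r*, *Fgfr3* and *Chadl*, and the lower one was *Epyc*.

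Of the cartilage transcription factors, 12 of 14 were tested, and 1 was called higher and 0 lower. By limma 7 were at an unadjusted p under 0.05, as were 13.1% of all genes tested. Of these 7, *Zbtb20* was lower (log2 difference -0.57) and the others higher. The list was chosen with earlier results of these data known, so nothing is read from this count. *Foxc1*, a forkhead factor of the cranial neural crest and of cartilage, had control values of 4.19, 4.57, 3.89 and 4.40 and mutant values of 6.54, 5.99, 7.82 and 7.02. It rose by 0.57 on the log2 scale (SE 0.10, limma adjusted p = 0.0202), with all mutants above all controls. This call was lost when any 1 control or mutant library 4 was left out (adjusted p of at most 0.344 over 19 alternatives). *Sox9*, the master regulator of cartilage and an activator of *Col2a1* and *Acan*, was at 67.7 ± 7.43 and 76.3 ± 5.41 (log2 difference 0.18, limma adjusted p = 0.473). *Runx2*, a factor of bone and of chondrocyte maturation, was at 61.9 ± 7.49 and 82.3 ± 6.10 (0.41, limma adjusted p = 0.0678), without overlap, and was called higher when control library 2 was left out. *Barx1* and *Arid5b*, the most abundant of the list, had log2 differences of -0.10 and 0.07. *Sox5* and *Sox6*, the partners of *Sox9* at cartilage enhancers, were singled out after their values were seen. Their log2 differences were 0.53 (limma adjusted p = 0.365) and 0.84 (limma adjusted p = 0.105), and both were called higher when mutant library 1 was left out.

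Of the growth plate signals, 6 of 9 were tested, 2 were called higher and 0 lower, with 4 at an unadjusted p under 0.05. *Fgfr3*, a receptor that restrains chondrocyte proliferation, had control values of 79.7, 68.8, 54.7 and 59.8 and mutant values of 91.0, 144, 126 and 135. Its groups did not overlap, and it rose by 0.90 (SE 0.16, limma adjusted p = 0.0202), with library 1 once more the lowest mutant. Its call was lost without control library 2, 3 or 4 or mutant library 2, 3 or 4 (adjusted p of at most 0.439 over 19 alternatives). *Pth1r*, the receptor of parathyroid hormone-related protein, rose from 41.4, 48.6, 40.6 and 43.2 in the controls to 62.9, 55.6, 64.4 and 63.0 in the mutants (log2 difference 0.49, SE 0.08, limma adjusted p = 0.0133), a call lost under 4 of 19 alternatives. These included leaving out control library 3, mutant library 4 or the 3 libraries high in enamel transcripts. Without those 3 libraries the log2 difference of *Pth1r* was 0.42 (limma adjusted p = 0.340, the highest of the 19). Its ligand *Pthlh* had a log2 difference of 0.00 (95% interval -0.20 to 0.21, limma adjusted p = 0.993). *Npr2*, the receptor of C-type natriuretic peptide, was at 50.4 ± 4.78 and 66.5 ± 10.2 (0.39, limma adjusted p = 0.144). *Prkg2*, a kinase downstream of that receptor, ranged from 3.94 to 5.18 in controls and 3.24 to 3.95 in mutants, with overlap (log2 difference -0.28, limma adjusted p = 0.301), and *Nppc*, the ligand of *Npr2*, had a log2 difference of -0.21 (limma adjusted p = 0.747). *Ihh*, made by chondrocytes leaving proliferation, had values of 0.08 to 0.21 and was below the filter.

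Of the other matrix and secreted proteins of cartilage, 8 of 20 listed were tested, 1 was called higher and 1 lower, and 4 were at an unadjusted p under 0.05. *Chadl*, a leucine-rich repeat protein that binds collagen, had control values of 2.44, 2.47, 1.72 and 2.75 and mutant values of 3.59, 6.61, 4.47 and 5.23. It rose by 0.82 (SE 0.17, limma adjusted p = 0.0390), and this call was lost under 13 of 19 alternative settings. *Epyc*, a small proteoglycan of growth plate cartilage, fell from 5.87, 6.27, 5.41 and 7.98 to 3.30, 2.47, 3.20 and 2.32 (log2 difference -0.95, SE 0.14, limma adjusted p = 0.00888). It was lower in every mutant library than in any control and so moved against *Acan* and *Col2a1*. Its call was lost under 2 of 19 alternatives. In 1 of them, without the 3 libraries high in enamel transcripts, the log2 difference was -0.945 (limma adjusted p = 0.170, the highest of the 19). *Vcan*, the aggrecan relative of soft mesenchyme, spanned 996 to 2235 in the controls and 902 to 4176 in the mutants (0.68, limma adjusted p = 0.609). *Col27a1*, another fibrillar collagen gene of cartilage, had a log2 difference of -0.35 (limma adjusted p = 0.299), *Matn4* of -0.08 and *Hapln3* of -0.14. *Cnmd*, which encodes chondromodulin and was singled out after its values were seen, was at 1.04, 1.45, 1.17 and 1.38 in controls and 1.63, 3.62, 5.04 and 2.22 in mutants, without overlap (0.80, limma adjusted p = 0.140). It was called higher when mutant library 1 was left out.

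Some genes of these lists were scarce in both groups and below the filter. *Col10a1*, the collagen of hypertrophic cartilage, had values of 0.40 to 0.76, *Matn3* of 0.28 to 0.70 and *Chad* of 0.21 to 0.57. *Cytl1*, a secreted protein of chondrocytes singled out after its values were seen, was at 0.075 ± 0.017 in the controls and 0.44 ± 0.068 in the mutants, from 3 to 5 and 18 to 36 estimated reads. It was below the filter, and without the filter its limma adjusted p was 0.00462. Also below the filter, *Nkx3-2* and *Bmpr1b* were higher without overlap. *Cilp* was lower without overlap (0.327 ± 0.130 in the controls and 0.135 ± 0.056 in the mutants). Without the filter the limma adjusted p of these genes was 0.106, 0.0926 and 0.211.

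Of the enzymes and carriers that build chondroitin sulfate, all 14 in the table were tested with limma, 0 were called higher and 0 lower, and 2 were at an unadjusted p under 0.05. These 2, singled out after their values were seen, were *Csgalnact2*, a transferase that starts the chains, with group means of 33.6 ± 1.16 and 38.38 ± 2.47, without overlap (log2 difference 0.19, 95% interval 0.03 to 0.34), and *Slc35d1*, a nucleotide sugar carrier, with 21.1 ± 2.22 and 29.6 ± 7.20 (0.45, 95% interval 0.10 to 0.79). The most abundant were *Impad1*, *Chst11*, *Ugdh* and *Papss2*, with log2 differences of -0.04, -0.12, 0.08 and -0.18. Of the proteases that process or degrade collagen and aggrecan, 11 of 11 were tested with limma, and 0 were called in either direction, with 0 at an unadjusted p under 0.05. *Mmp14*, *Mmp9*, *Adamts9* and *Adamts2* had log2 differences of -0.06, -0.39, 0.06 and -0.26. Under the 19 alternative settings neither list gained a call.

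**Figure D4:**
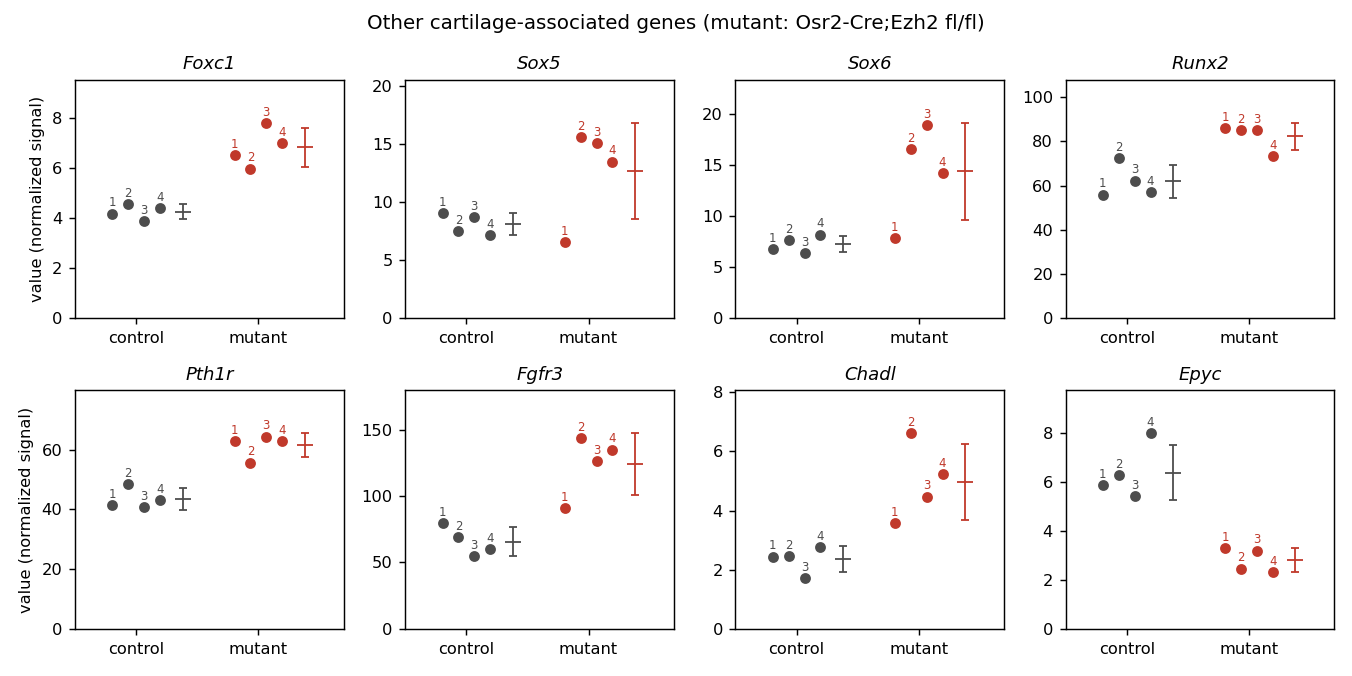
Deposited normalized values (vertical axes, starting at 0) of 8 regulators, receptors and matrix genes in the 4 control and 4 mutant libraries, numbered, with bars for the mean ± SD. Foxc1, Pth1r, Fgfr3 and Chadl are higher and Epyc lower in every mutant than in any control, and mutant library 1 lies below every control for Sox5 and among the controls for Sox6.

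Markers of the cell types that the dissected tissue could hold were read beside the members. Fewer cells of a type and less RNA per cell cannot be told apart in such bulk samples. The summed levels of 5 hypertrophic chondrocyte markers were 256 to 469 in the controls and 521 to 686 in the mutants, without overlap. This list was called for 1 of its 3 tested genes, *Ibsp*, a bone sialoprotein of mineralizing tissue that the osteoblast list also holds. *Ibsp* rose from 82.1, 141, 119 and 114 to 498, 331, 396 and 437 (log2 difference 1.87, limma adjusted p = 0.00126). *Col10a1* and *Ihh*, also on the list, had values of 0.40 to 0.76 and 0.08 to 0.21, below the filter. *Panx3* and *Mmp13* had group means of 126 ± 26.2 and 159 ± 31.7, and of 82.0 ± 82.0 and 34.5 ± 38.6, with overlap in both. Which cell type gave this summed level was not tested. Summed osteoblast markers overlapped (8192 to 10002 and 6744 to 9823), with 1 of 6 called.

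Dental mesenchyme markers were at 182 to 245 and 230 to 270, with 1 of 5 called, *Lhx8*, a homeobox gene of the tooth mesenchyme, which rose by 1.17 (limma adjusted p = 0.00509). Tendon and ligament markers were at 33.8 to 63.6 and 50.9 to 73.1, and odontoblast markers at 1524 to 3014 and 671 to 2467, with 0 of 3 called in each list, and 1 and 2 genes at an unadjusted p under 0.05. Endothelial markers were lower without overlap (290 to 326 against 255 to 276), with 0 of 4 called and 3 at an unadjusted p under 0.05. Ameloblast markers ranged from 758 to 28532 and 696 to 11434, epithelial from 1865 to 4245 and 1793 to 2516, muscle from 8.55 to 49.99 and 3.03 to 13.2, macrophage from 85.9 to 144 and 114 to 128, and Schwann cell from 25.1 to 39.1 and 25.1 to 40.0. In these 5 lists 0 genes were called by limma, and 1 gene, in the epithelial list, was at an unadjusted p under 0.05. The part of these markers in the members' differences was not tested.

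Outside the set, the 9 genes with the profile nearest to the members' mean profile over the 8 libraries were *Pde1a*, *Mansc4*, *Asap1*, *Sulf2*, *Trpc5*, *Adcy5*, *Kif26b*, *Sardh* and *Adgra2*, with Pearson's r of 0.971 to 0.987. *Pde1a*, a calmodulin-dependent phosphodiesterase, had control values of 4.74, 4.76, 4.09 and 4.18 and mutant values of 4.89, 8.84, 7.37 and 7.80. *Sulf2*, an enzyme that trims heparan sulfate, had 114, 117, 111 and 111 in the controls and 103, 169, 144 and 145 in the mutants. Both had mutant library 1 near the controls and the other 3 mutants above them. *Foxd2os*, *Ttc39c* and *Gdap1l1* were nearest to *Col2a1* alone (r of 0.983, 0.979 and 0.978). These likenesses were picked from all genes tested and carry no test.

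**Figure D5:**
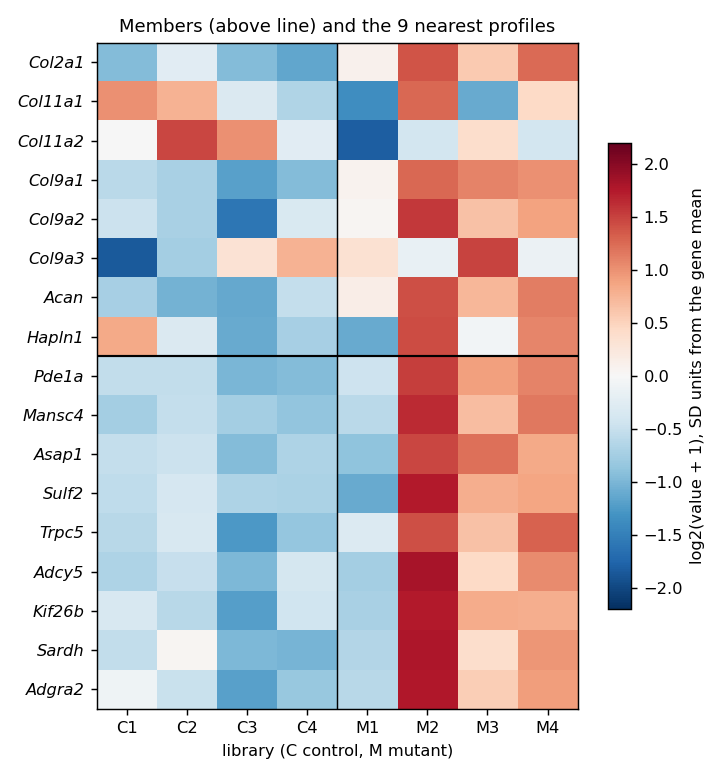
Values on the log2(value + 1) scale of the 8 members past the filter (above the line) and of the 9 genes with the nearest profiles, as SD units from each gene's mean (colour), in control (C1 to C4) and mutant (M1 to M4) libraries. The 9 genes below the line are low in C1 to C4 and in M1 and high in M2, M3 and M4.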

How the data were processed

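RNA-seq values of 8 molar mesenchyme libraries were read from the deposited table. The authors deposited a normalized signal per gene on mm10, with 0 other columns of per-sample values. The study's methods name TopHat and RPKM, whereas the submitters' processing notes name CASAVA 1.8.2, STAR 2.5.3a and Partek. The signal held no length factor, so it was treated neither as RPKM nor as counts. Reads were estimated by dividing each value by the smallest one in its library and taking off 1. Because only 62.5% of the values under 20 times that smallest value were whole multiples of it (tolerance 0.02), no count test was run. At an unknown true depth, intervals of reads are not given.

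The members and gene lists were chosen with earlier results of these data known. Named are all members, the called genes and the most abundant others (up to 4) of each list, and the nearest profiles, of which 1 is not reported here. Groups and replicate numbers came from the sample titles. The study's methods state 4 samples a group but also speak of 3 sequenced pairs, which they do not identify. The model was limma 3.58.1 in R 4.3.3 (mean-variance trend, group only, all 8 libraries) on log2(value + 1), with a pseudocount of 1, over the 14854 genes past the filter, with Benjamini-Hochberg adjustment over all of them at 0.05. Fold changes on this scale understate the change of low genes. Exon lengths came from GENCODE, and table ends lie 1 base past its gene ends for most members. Code was tested on simulated data. Python 3.11.15 with pandas 2.3.3 and matplotlib 3.10.9 was used. The alternatives were pseudocounts of 0.1 and 5, no filter, median-of-ratios and quantile scaling, no trend, robust moderation, the replicate block and leaving out each library. A further 3, chosen after the data were seen, were leaving out the 3 libraries high in enamel transcripts and taking *Amelx*, *Ambn* and *Enam*, or *Xist*, as a covariate.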

Additional observations from a re-analysis of the deposited data

Results flagged for a closer look

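For *Pth1r*, the receptor of parathyroid hormone-related protein, mutant library 2 was far from the other mutants, with a value of 55.6 beside 62.9 to 64.4. It was still above all 4 controls (40.6 to 48.6). The gap was judged by Dixon's criterion for groups of 4 (critical value 0.829). Over the 28 groups examined, chance alone gives about 1.4 such libraries.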

How the results depend on the processing

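The median log2 difference of the 8 members kept its sign under all 19 alternatives (0.61 to 0.80). *Col9a1* ranged from 1.43 to 2.42, *Acan* from 1.08 to 2.03, *Col2a1* from 1.09 to 1.56 and *Col9a2* from 0.78 to 1.09, with the lowest values of the first 3 at a pseudocount of 5. *Col9a3* (0.13 to 0.75) and *Hapln1* (0.04 to 0.37) kept their sign, as did *Col11a2* (-0.35 to -0.15), while *Col11a1* ranged from -0.25 to 0.00. The called pathway genes ranged from 0.35 to 0.67 for *Foxc1*, 0.42 to 0.55 for *Pth1r* and 0.70 to 1.04 for *Fgfr3*. *Chadl* ranged from 0.43 to 1.04 and *Epyc* from -1.15 to -0.54.

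Leaving out single libraries gave 108 to 332 genes called higher and 21 to 97 called lower, of which 0 to 8 higher were pathway genes. The 332 and the 8 came without mutant library 1, when *Sox5*, *Sox6*, *Cnmd* and *Wwp2* joined the calls, the 108 without control library 3, and the 0 without control library 3 or mutant library 4 (limma, 11 pathway genes higher at an unadjusted p under 0.05 in each). *Chadl* also lost its call without control library 1, 2 or 4 or mutant library 2 or 3. *Epyc* kept its call in all of these. The cause was not tested.

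Without the 3 libraries high in enamel transcripts, which leaves 2 controls and 3 mutants, limma called 8 genes higher and 0 lower over all genes (606 and 446 at an unadjusted p under 0.05) and 0 pathway genes higher and 0 lower (6 and 5 unadjusted). With the replicate block limma called 64 genes higher and 9 lower, and 0 pathway genes higher and 0 lower (11 and 4 unadjusted). Under it the adjusted p was 0.156 for *Foxc1*, 0.125 for *Pth1r*, 0.0972 for *Fgfr3*, 0.0856 for *Chadl* and 0.0731 for *Epyc*. Libraries of the same number did not deviate together (correlations of -0.34, -0.08, 0.22 and -0.43), and the pairs that the study's methods mention are not named, so the numbers were not taken to pair them. *Chadl* lost its call with median-of-ratios scaling (adjusted p = 0.0505), quantile scaling (0.0722) and the enamel and *Xist* covariates (0.0812 and 0.0584). Depth limits genes such as *Comp*, *Ihh* and *Cytl1*, at 36 estimated reads or fewer.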

Other observations

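*Comp*, at 5 to 13 estimated reads, had its nearest profiles in *Gm1943* (Pearson's r 0.943 over the 8 libraries), *Gm7935* (0.937) and *Arsi* (0.895), values that carry its counting error.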
